A study of Mus musculus with 6 samples.

Results

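Accessible chromatin inside the longest genes of the mouse genome was described in spermatogonia of newborn mice. Peaks of 6 ATAC-seq libraries were merged where they overlapped or touched, and a merged region was kept when it lay wholly inside a protein-coding gene of at least 500 kb, on chromosomes 1 to 19, and more than 3 kb from the 5′ end of every annotated gene. This gave 7092 regions of the 155412 merged autosomal regions, or 4.56%. They lay in 215 of the 216 genes of that length, since Skint5 held none. The rule used gene length and position only, and no difference between genotypes.

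Spermatogonia, germ cells that divide by mitosis before meiosis, were taken at postnatal day (Pnd) 5 from mice without the deacetylase SIRT7 (Sirt7-/-, S7KO) and from wild-type (WT) mice, both of the 129S1/Sv strain. Each library came from 50000 cells enriched by differential plating, a step in which somatic cells attach to the dish and germ cells stay in suspension, and there were 3 S7KO and 3 WT libraries. Libraries carry the replicate numbers 1, 2 and 4 of their titles in each genotype. The paper describes 3 independent biological replicates for its ATAC-seq, but nothing in the labels ties a library to an animal or a batch. The p-values below therefore measure the spread between these libraries only.

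In ATAC-seq the Tn5 transposase inserts sequencing adapters where DNA is free of packed nucleosomes, so that promoters, enhancers and insulators gather fragments and are called as peaks. Very long genes owe their length to large introns. They are known for neuronal adhesion molecules, receptors and ion channels, they take long to transcribe, and many coincide with common fragile sites, where DNA breaks under replication stress. Peaks deep inside such genes can mark internal promoters, from which shorter isoforms start, or intronic regulatory elements, and the peak lists alone do not separate these.

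The sequences that show this best are starts that the annotation lists inside a very long gene, far from its outermost 5′ end. RefSeq (GRCm38.p6) listed 102 such starts in 65 of the 169 very long genes that its promoter table holds, and 70 of them (68.6%) lay over a region called in all 6 libraries, 4 over a region called in 1 to 5 libraries and 28 over no peak. The windows below run from 250 bases before to 50 bases after the start, 5′ to 3′ on the strand of the gene, with CG dinucleotides in capitals. The first set lay over regions called in all 6 libraries. They are the start of Nrxn3, a presynaptic adhesion molecule with a known shorter form made from an internal promoter (chr12:89812233-89812532, plus strand), and those of Frmd4a, a scaffold of cell polarity (chr2:4559504-4559803, plus strand), Schip1, a protein of the axon initial segment (chr3:68572118-68572417, plus strand), and Magi1, a scaffold of cell junctions (chr6:93912914-93913213, minus strand).
Nrxn3: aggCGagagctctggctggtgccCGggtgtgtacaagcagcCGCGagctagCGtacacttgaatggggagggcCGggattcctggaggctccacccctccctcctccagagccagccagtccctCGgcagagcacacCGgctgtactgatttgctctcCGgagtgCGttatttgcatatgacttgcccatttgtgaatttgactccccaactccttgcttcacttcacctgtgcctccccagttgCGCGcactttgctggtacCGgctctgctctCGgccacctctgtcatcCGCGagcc
Frmd4a: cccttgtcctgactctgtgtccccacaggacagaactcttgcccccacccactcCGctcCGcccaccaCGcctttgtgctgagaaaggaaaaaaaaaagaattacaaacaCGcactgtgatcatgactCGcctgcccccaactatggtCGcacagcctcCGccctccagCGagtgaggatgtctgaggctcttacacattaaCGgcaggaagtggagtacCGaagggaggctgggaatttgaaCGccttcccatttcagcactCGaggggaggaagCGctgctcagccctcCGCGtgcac
Schip1: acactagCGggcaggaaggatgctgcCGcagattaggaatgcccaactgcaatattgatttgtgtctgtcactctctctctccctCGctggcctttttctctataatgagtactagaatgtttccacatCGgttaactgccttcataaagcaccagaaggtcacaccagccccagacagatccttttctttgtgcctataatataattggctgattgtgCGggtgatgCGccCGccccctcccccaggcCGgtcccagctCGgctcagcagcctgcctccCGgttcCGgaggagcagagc
Magi1: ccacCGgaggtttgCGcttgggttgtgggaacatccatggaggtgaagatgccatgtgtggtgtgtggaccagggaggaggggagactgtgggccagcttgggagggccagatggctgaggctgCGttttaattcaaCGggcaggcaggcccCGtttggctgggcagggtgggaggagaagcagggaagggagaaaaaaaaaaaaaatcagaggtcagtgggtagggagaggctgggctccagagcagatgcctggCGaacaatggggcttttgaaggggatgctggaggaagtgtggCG

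The second set had no peak in any library and is shown for contrast. It holds a start of Rbfox1, a splicing regulator (chr16:7069585-7069884, plus strand), and one of Ppargc1a, a coactivator of mitochondrial genes (chr5:51567676-51567975, minus strand).
Rbfox1: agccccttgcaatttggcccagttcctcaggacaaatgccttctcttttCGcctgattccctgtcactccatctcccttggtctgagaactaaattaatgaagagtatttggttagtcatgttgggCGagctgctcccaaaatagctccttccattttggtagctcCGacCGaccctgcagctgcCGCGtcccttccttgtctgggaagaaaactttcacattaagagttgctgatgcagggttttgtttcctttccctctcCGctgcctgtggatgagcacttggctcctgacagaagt
Ppargc1a: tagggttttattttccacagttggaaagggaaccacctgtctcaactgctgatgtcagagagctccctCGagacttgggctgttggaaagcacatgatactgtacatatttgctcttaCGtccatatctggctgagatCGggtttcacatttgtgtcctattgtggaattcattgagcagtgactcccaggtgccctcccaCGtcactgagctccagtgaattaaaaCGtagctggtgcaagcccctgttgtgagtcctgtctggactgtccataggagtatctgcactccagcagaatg

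The Nrxn3 window held 16 CG dinucleotides, the Frmd4a window 15, the Schip1 window 11 and the Magi1 window 7, against 7 in the Rbfox1 window and 5 in the Ppargc1a window. Over all windows of each kind, the 70 starts over regions called in 6 libraries had a median of 8 CG dinucleotides (2 to 57) and a median GC content of 54.2%, the 28 starts without a peak a median of 2 (0 to 7) and 46%, and all 32851 listed mouse promoters a median of 7 and 52.7%. At least 1 CG stood in 100% of the windows with a region, 92.9% of those without and 94.6% of all promoters. The GC box GGGCGG, read on both strands and not overlapping another motif searched, stood in 25 windows with a region (35.7%), in 2 without (7.14%) and in 35.7% of all promoters. These are matches of letters and were not tested. CG content was therefore lower at the starts without a peak than at those under a region, and the latter were close to promoters in general.

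The Nrxn3 start lay 67.6% of the way along its gene and 596 kb from the nearest annotated outermost 5′ end. Its region (1485 bp) ranked within the top 2.53% of every list by q-value, with fold enrichments over the local background of 6.06, 6.26 and 5.87 in S7KO and of 5.94, 6.09 and 6.17 in WT. The ranges of the genotypes overlapped. The Frmd4a region (1539 bp) lay within the top 5.50% of every list, the Schip1 region (1488 bp) within 7.04% and the Magi1 region (1619 bp) within 8.86%. Regions over a listed start were few, 69 of the 7092 (0.973%). They had a median width of 1486 bp against 582 bp for the rest, and 65 of them (94.2%) were called in all 6 libraries against 47.1% of the rest. Nearly all regions inside very long genes thus lay away from any listed start, as far as the 169 genes in the promoter table show.

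The libraries differed in how many regions they called. S7KO replicates 1, 2 and 4 held a peak in 4811, 5262 and 5579 of the regions, and WT replicates 1, 2 and 4 in 4828, 4032 and 5662. WT replicate 2 stood lowest, both here and in its whole list, which had 105754 peaks against 118912 to 133695 in the other libraries. The background coverage was derived from the fold enrichment and p-value of narrow peaks. It is the low end, the 1st percentile, of the fragments expected at the positions of these peaks, and not their mean. It was 2.92 in WT replicate 2 and 4.72 to 6.03 in the others, and libraries of higher coverage held more regions, apart from the replicates 4, which were close in both. The part of depth in the values below was not tested. The depth in reads is unknown from these lists. A region without a peak in a library was not called at that depth, which does not show that it was closed.

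Promoters of the cell types that the suspension could hold were checked for peaks. All 17 spermatogonia markers, among them Zbtb16 (PLZF) and Gfra1, had a peak near their 5′ end in all 6 libraries, and so had 8 of 10 Sertoli, 5 of 6 Leydig, 5 of 5 peritubular myoid and 5 of 7 endothelial and blood markers. Rhox8 of the Sertoli list and Ptprc of the blood list had a peak in no library. Promoter peaks are no measure of expression and did not separate these cell types. The part of somatic cells in the values below was not tested.

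Regions were sparser in very long genes than in shorter genes in every library. Per 100 kb of gene sequence beyond 3 kb from 5′ ends, the S7KO libraries held 2.76, 3.02 and 3.20 regions and the WT libraries 2.77, 2.31 and 3.25. In protein-coding genes of 100 to 500 kb the same densities were 5.22, 5.81 and 6.07 in S7KO and 5.10, 4.56 and 6.21 in WT. The lowest density of the shorter genes (4.56) lay above the highest of the very long genes (3.25), so the classes did not overlap. The mean density was 2.88 ± 0.348 (SD, n = 6) against 5.49 ± 0.639, a ratio of 0.525, and it was lower in very long genes in 6 of 6 libraries (exact two-sided sign-flip permutation test over the libraries, p = 0.031, adjusted p = 0.031 over 6 paired measures, the smallest the test can give). Against genes of under 100 kb, with 6.0 ± 0.609 regions per 100 kb, the ratio was 0.481, again with 6 of 6 libraries lower (exact permutation p = 0.031, adjusted p = 0.031).

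**Figure D1:**
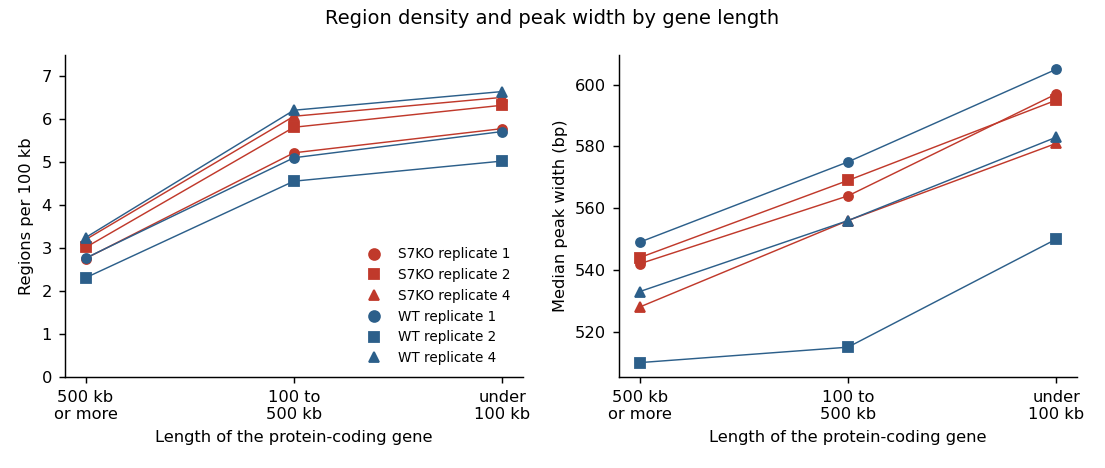
Regions per 100 kb (left) and median peak width in bp (right, axis not from 0) in protein-coding genes of 500 kb or more, 100 to 500 kb and under 100 kb, with 1 line per library, S7KO in red and WT in blue. In every library both values were lowest in the genes of 500 kb or more, with densities of 2.31 to 3.25 there and 4.56 to 6.21 in genes of 100 to 500 kb.

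Peaks in very long genes were also narrower. The median width of a library's own peaks in these regions was 542, 544 and 528 bp in S7KO and 549, 510 and 533 bp in WT, with single peaks from 188 to 4475 bp. In genes of 100 to 500 kb the medians were 564, 569 and 556 bp in S7KO and 575, 515 and 556 bp in WT. The difference was small, and WT replicate 2 showed the least of it. The mean of the medians was 534 ± 14.2 bp (SD, n = 6) against 556 ± 21.3 bp, a difference of -21.5 bp, and against 585 ± 19.4 bp in genes of under 100 kb, a difference of -50.8 bp (lower in 6 of 6 libraries in both, exact two-sided sign-flip permutation p = 0.031, adjusted p = 0.031). By q-value, peaks in very long genes had a median rank of 57.7% to 59.1% of their list, where 100% is the weakest peak, and peaks in genes of 100 to 500 kb one of 56.0% to 57.2%, a difference that was not tested.

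Density also differed by length within the very long genes. The 71 genes of 500 to 600 kb held 3.29 ± 0.421 regions per 100 kb and library (SD, n = 6) and the 52 of 600 to 800 kb 3.34 ± 0.396. The 63 genes of 800 to 1200 kb held 2.54 ± 0.283, and the 30 longest genes 2.2 ± 0.291. The first 2 classes did not differ beyond their spread, and the 2 longest overlapped each other (2.07 to 2.84 and 1.69 to 2.46). The same 6 libraries gave each range, and these classes were not compared within libraries, so overlap does not show that they are alike. Across the 216 genes Spearman's rank correlation of length and density was -0.225, a description over genes that share the same libraries. The 8 genes just under the limit, of 490 to 496 kb, held from 2.24 (Kcnh7) to 11.1 (Ank3) merged regions per 100 kb, with Prkce at 8.98 and Dnm3 at 8.07. The 5 genes just above it, of 502 to 505 kb, held from 1.58 (Car10) to 4.77 (Dock1). The 43 regions at 3.0 to 3.5 kb from a 5′ end had a median width of 612 bp, and the 41 at 2.5 to 3.0 kb, just left out, one of 615 bp.

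Regions were not even along the genes. From the 5′ to the 3′ end, 5 equal bins of the genes held, in S7KO replicate 1, 2.67, 2.42, 2.51, 2.78 and 3.40 regions per 100 kb, and in WT replicate 1 2.74, 2.46, 2.46, 2.78 and 3.40. The last bin was highest in every library (2.89 to 4.0) and the first (2.26 to 3.17) higher than bin 2 (1.98 to 2.81). The first bin held 2.83 ± 0.349 and the last 3.53 ± 0.397 (SD, n = 6), a difference of -0.697, lower at the 5′ end in 6 of 6 libraries (exact two-sided sign-flip permutation p = 0.031, adjusted p = 0.031). The 3 kb around 5′ ends did not enter these densities.

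**Figure D2:**
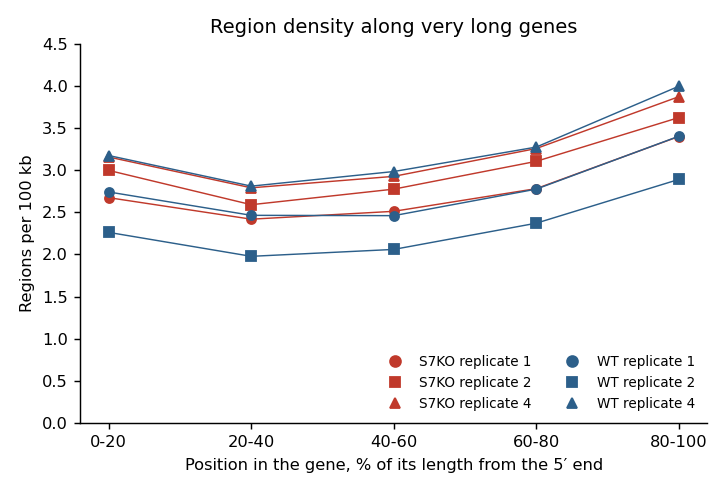
Regions per 100 kb in 5 equal bins of very long genes of known strand, from the 5′ to the 3′ end, with 1 line per library, S7KO in red and WT in blue. All 6 lines were lowest in bin 2 or 3 and highest in bin 5, at 2.89 to 4.0 regions per 100 kb.

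Most very long genes had a peak at their own promoter. The gene's own 5′ end had a peak within 3 kb in all 6 libraries in 191 genes (89.7% of those with a known strand), in 1 to 5 libraries in 4 (Iqschfp, Rbms3, Dpp10 and Tafa1) and in none in 18, and the share with all 6 was 90.7% in the 2087 genes of 100 to 500 kb. Pooled over genes, those with a peak at the outermost 5′ end held fewer regions per 100 kb than those without. The pooled density was 2.85 ± 0.352 over 189 genes against 3.40 ± 0.341 over 18 (SD, n = 6 libraries). It was lower with a peak in 6 of 6 libraries (exact two-sided sign-flip permutation p = 0.031, adjusted p = 0.031). The libraries share the same genes, so this test does not measure the spread between genes. Of the 18, 9 lay above the median of all genes, among them Nfia (12.0) and Zfhx3 (7.47), and 9 below it, among them Mgat4c (1.41) and Skint5 (0). The median gene density was 3.82 in these 18 genes and 3.66 in the 191 with a peak. The 5′ end used here is the outermost annotated one, so that promoters further inside are not counted. With a length limit of 300 kb this difference turned round, to 0.249.

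Single genes differed far more than the classes. Counted over the merged regions of all 6 libraries, the 216 genes held between 0 and 12.0 regions per 100 kb, with a median of 3.65 and quartiles of 2.30 and 5.67, and a median of 31 regions per gene. The median gene's SD between libraries was 14.6% of its mean, while the upper quartile of density was 2.46 times the lower one. A library calls fewer regions than the 6 together, so a density in 1 library is below the merged one.

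Nfia, a transcription factor of glial and neural development (chromosome 4, 97578066 to 98118876), had the highest density of merged regions, 12.0 per 100 kb with 65 regions. It held 47, 48 and 56 regions in the S7KO libraries and 39, 38 and 53 in the WT libraries. WT replicates 1 and 2 were low and WT replicate 4 lay within the S7KO range, so the groups overlapped. Arhgap26, a GTPase-activating protein, followed with 11.4 (88 regions). Nav2, a cytoskeletal protein of axon growth, held 11.1 (72 regions, with 56, 58 and 57 in S7KO and 51, 48 and 62 in WT). Kalrn, a guanine nucleotide exchange factor at synapses, held 10.3, Slit3, a secreted guidance ligand of Robo receptors, 10.1, Elmo1, which acts with DOCK proteins on Rac, 9.66, Thsd4 9.55, Mast4, a kinase, 9.46, Pard3, a core polarity protein, 9.11, and Ptprm, a receptor phosphatase that mediates cell adhesion, 8.87. By library, these 10 genes ranged from 4.83 (Elmo1 in S7KO replicate 1) to 10.4 (Nfia in S7KO replicate 4). Neighbours in this order did not differ beyond their spread, and the order holds for merged regions. By mean density per library Arhgap26 (8.99) lay above Nfia (8.66), and Camta1 (6.88), outside these 10 genes, above Elmo1 (6.44). Nfia ranged from 7.03 to 10.4 over the libraries, Arhgap26 from 7.75 to 10.2 and Nav2 from 7.37 to 9.52.

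At the other end, Skint5, of a cluster of closely related immunoglobulin superfamily genes of skin and thymus, held no region in 522 kb (chromosome 4, 113477891 to 113999503). The authors kept uniquely mapped reads only, and how much of this gene can be mapped was not tested. Sgcz, a sarcoglycan of the muscle cell membrane, held 8 regions in 1144 kb (0.699 per 100 kb), with 6, 7 and 7 in S7KO and 7, 7 and 7 in WT. Its few regions were well shared, 6 of 8 being called in all libraries. Grm7, a metabotropic glutamate receptor, held 9 (0.976), of which 3, 3 and 5 were called in S7KO and 3, 1 and 5 in WT, and only 1 in all 6. Grm5, another metabotropic receptor, held 1.09, Tafa1, a secreted neural protein, 1.1, Grid1, a delta glutamate receptor, 1.18, and Thsd7b 1.27. The predicted gene models Gm37013, Gm38666 and Gm38667 (1.01, 1.03 and 1.04) overlap and share the same 9 regions. Within single libraries the highest of these 10 genes reached 1.1 and the lowest of the densest 10 stood at 4.83.

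**Figure D3:**
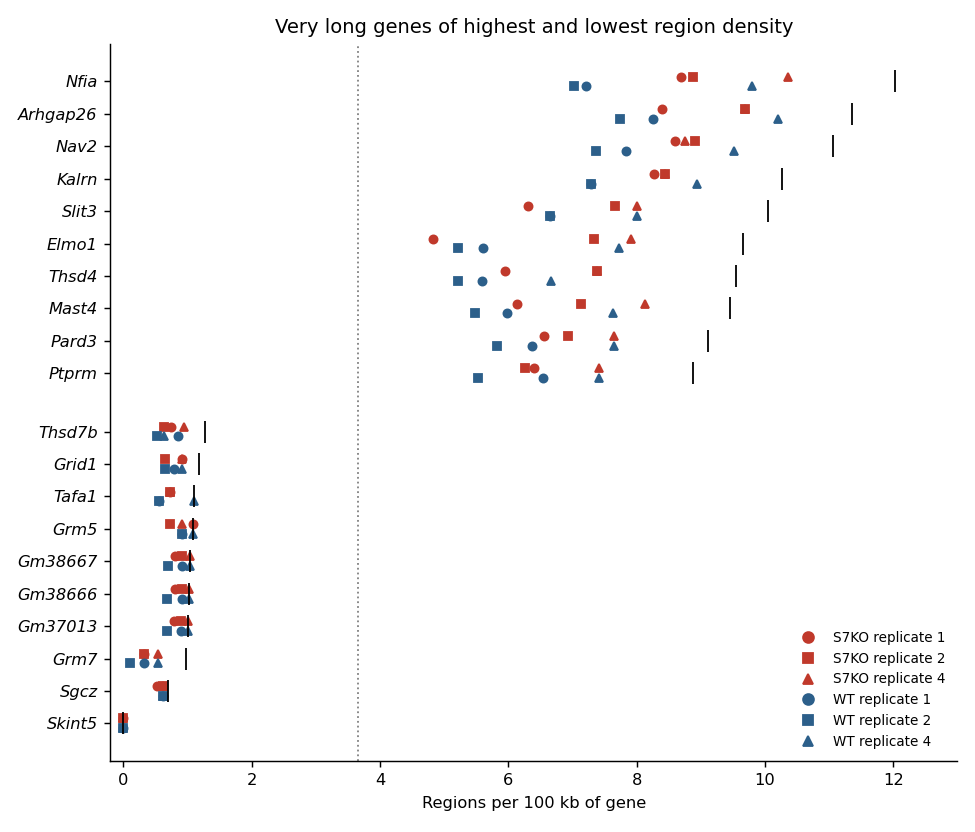
Regions per 100 kb of gene for the 10 very long genes of highest and the 10 of lowest density, by library (red S7KO, blue WT, symbols by replicate), with the merged regions of all 6 libraries as a black bar and the median of 216 genes (3.65) as a dotted line. The densest genes lay at 4.83 to 10.4 in every library and the sparsest at 0 to 1.1, and S7KO and WT points intermingled.

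The 5 longest genes lay below the median. Ptprd, a presynaptic receptor phosphatase of 2271 kb, held 66 regions (2.91 per 100 kb), with 36, 45 and 45 in S7KO and 35, 37 and 54 in WT. Cntnap2, a neurexin-like adhesion protein, held 50 (2.23), Lsamp, a cell surface adhesion protein of limbic neurons, 68 (3.09), Lrp1b, a lipoprotein receptor relative, 44 (2.14), and Macrod2, which removes ADP-ribose from proteins, 65 (3.25). By number rather than density, Tenm3, a teneurin that matches synaptic partners, held the most (94), followed by Arhgap26 and Auts2, a transcriptional regulator of neural development (88 each), and Ctnna3, an alpha catenin (81). Stretches without any region of this set were long. The set leaves out regions within 3 kb of a 5′ end, so such a stretch can hold peaks there. The median gene had one of 112 kb, and 32 genes had one of over 200 kb. The longest after Skint5 covered 474 kb of Sgcz (chromosome 8, 37899256 to 38373131), followed by 400 kb shared by the 3 predicted gene models.

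Grouped by function, the classes differed in their medians. Lists of genes for each class held 151 of the 216 genes. Of 22 genes for transcription and RNA regulators, 19 lay above the median of all genes (3.65) and their own median was 5.79, with Nfia (12.0) and Camta1, a calmodulin-binding transcription activator (8.48), at the top, and Rarb, a retinoic acid receptor (2.46), and Zfp804b (1.39) at the bottom. Of 18 ion channels and neurotransmitter receptors, 5 lay above it, with a median of 2.21. Cacna1c, the L-type calcium channel (7.21), and Kcnma1, a calcium-activated potassium channel (5.19), were the highest of these, and 10 of the 18 were in the lowest quartile. Of 25 scaffold, polarity and cytoskeleton genes 18 lay above the median (4.38). Of 46 synaptic and neural adhesion genes 19 did (3.43), from Slit3 (10.1) and Ptprm (8.87) to Dcc, the netrin receptor (1.28), and Thsd7b (1.27).

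Genes of common fragile sites and replication stress hotspots did not stand apart, as 17 of 34 lay above the median of all genes (3.67 against 3.65). They spanned from Auts2 (7.96) and Foxp1, a forkhead factor (7.87), to Fhit, a diadenosine triphosphate hydrolase (2.11), and Csmd1, a complement regulator (1.64). Of 24 signalling genes 10 lay above it (median 3.48), with Rgs6, a regulator of G protein signalling (6.78), and Ptprn2, a dense-core vesicle protein (6.06), highest, and Fgf14 (1.42) and Galnt13, a glycosyltransferase (1.32), lowest. Of 15 genes listed under genome maintenance, redox and metabolism 8 did (4.29), with Rad51b, a recombination factor, at 8.53, Atrnl1 at 8.42, Lingo2 at 2.15 and Fhit at 2.11. Genes were taken as listed, and Atrnl1 and Lingo2 need not act in these processes. The lists overlap in places and the genes share libraries, so these counts are descriptions without a test.

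Related genes could differ widely. These sets were picked after their values were seen. Wwox, an oxidoreductase, held 7.67 regions per 100 kb, with 5.04 to 6.35 by library, and Fhit, like it a tumour suppressor at a fragile site, 2.11, with 0.931 to 1.61. Robo1, a receptor for Slit ligands, held 7.35 (3.92 to 5.88) and Robo2 3.41 (2.19 to 2.64). Among receptor phosphatases, Ptprm (8.87) and Ptprg (8.13) lay above Ptprk (3.44), Ptprd (2.91) and Ptprt (2.37). The library ranges of Ptprg (3.34 to 6.53) and Ptprt (1.23 to 1.93) did not overlap. Sox5 (7.86, by library 5.87 to 6.81), a transcription factor of cartilage and neurons, lay above Sox6 (5.44, 3.16 to 5.09), and Foxp1 (7.87, 2.68 to 6.53) above Foxp2 (3.70, 2.03 to 2.59). Other families lay mostly below the median of all genes. The 6 very long genes for glutamate receptors all lay below it, from Grik2 (2.44) to Grm7 (0.976). The library ranges of Grik2 (1.15 to 2.01) and Grm7 (0.108 to 0.542) did not overlap. The contactins Cntn4 (2.35) and Cntn5 (2.2) also lay below the median, with overlapping library ranges (1.37 to 1.96 and 0.944 to 1.65). The neurexin relatives Cntnap2, Cntnap5a, Cntnap5b and Cntnap5c held 1.67 to 2.23, and Nrxn3 held 3.66.

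Of the 7092 regions, 3371 (47.5%) were called in all 6 libraries, 677 in 5, 574 in 4, 524 in 3, 749 in 2 and 1197 (16.9%) in 1. The share called in all 6 was 50.1% in genes of 100 to 500 kb, 51.6% in shorter genes, 53.6% outside genes and 77.2% within 3 kb of 5′ ends. Regions of very long genes were thus the least shared of these classes, by a small margin against other gene bodies, and the difference was not tested. Merged width rose with the number of libraries, from a median of 246 bp for regions in 1 library to 883 bp for those in 6. The median over all was 586.5 bp, with quartiles of 364 and 931 bp and a range of 188 to 4630 bp. Merging alone widens regions that more libraries hold. Of the regions of a single library, 398 came from WT replicate 4 and 310 from S7KO replicate 4, the libraries with the longest lists, against 69 from WT replicate 2.

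**Figure D4:**
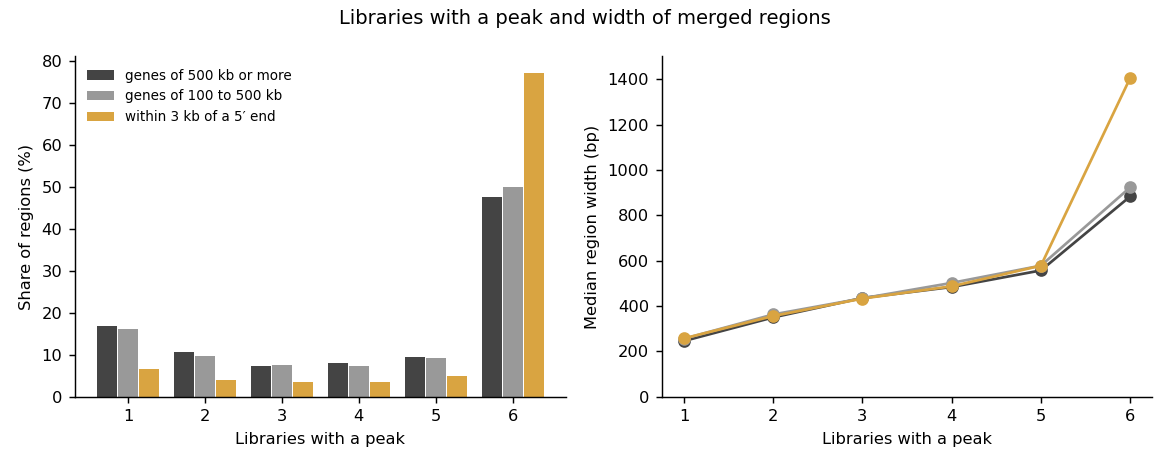
Share of merged regions (left, %) and their median width (right, bp) by the number of libraries with a peak, for genes of 500 kb or more, genes of 100 to 500 kb, and the 3 kb around 5′ ends. Of the regions in very long genes 47.5% were called in 6 libraries and 16.9% in 1, and their median width was 883 and 246 bp.

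The strongest regions were shared by all libraries. One in Sema6d, a transmembrane semaphorin (chromosome 2, 124609578 to 124611128), lay within the top 1.37% of every list, with fold enrichments of 5.68, 5.28 and 5.88 in S7KO and of 5.88, 6.35 and 5.62 in WT. One in Iqschfp, the readthrough gene that spans Schip1 (chromosome 3, 68542782 to 68543551), lay within 2.35%, with folds of 10.2, 10.4 and 9.32 in S7KO and of 10.6, 10.4 and 10.2 in WT. That of Nrxn3 followed as described above. One in Syne1, a nuclear envelope spectrin (chromosome 10, 5194281 to 5195261), lay within 2.65%, and one in Kcnma1 (chromosome 14, 23885426 to 23886443) within 2.84%. The widest regions were others, in Elmo1 (4630 bp), Etl4 (4111 bp), Zfhx3 (3871 bp), Tenm4 (3826 bp) and Tenm3 (3711 bp). The Elmo1 region ranked between 52.1% and 78.0% of the lists, so its width did not go with a high rank.

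Loss of SIRT7 was compared with WT for the same regions. The number of regions with a peak averaged 5217 ± 386 over the 3 S7KO and 4841 ± 815 over the 3 WT libraries (SD), a difference of 377 that was smaller than the spread between libraries (exact permutation test, two-sided, with 20 ways to assign the libraries, p = 0.7, where the smallest p possible is 0.1). The groups overlapped, and without WT replicate 2 the difference was -27.7. As a share of the library's autosomal regions, very long genes took 4.15%, 4.24% and 4.34% in S7KO and 4.19%, 3.97% and 4.39% in WT. The means were 4.24 ± 0.0947% and 4.18 ± 0.210% (difference 0.0597 percentage points, exact permutation p = 0.7), and without WT replicate 2 the difference was -0.0474. The share was lowest in the library with the fewest autosomal regions (WT replicate 2, 101613) and highest in that with the most (WT replicate 4, 129051).

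The density ratio of very long genes to genes of 100 to 500 kb was 0.525 ± 0.00515 in S7KO and 0.524 ± 0.0177 in WT (exact permutation p = 1). The median peak width was 538 ± 8.72 bp and 531 ± 19.6 bp (difference 7.33 bp, exact permutation p = 0.7), and the median rank 58.2 ± 0.417% and 58.5 ± 0.592% (difference -0.278, exact permutation p = 0.6). The share of regions in the first of the 5 bins of the gene was 19.3 ± 0.235% and 19.2 ± 0.141% (difference 0.0215, exact permutation p = 0.9). All 6 adjusted p-values of these exact permutation tests were 1. With 3 libraries against 3 no such test can reach 0.05, so the overlap of the groups is the plainer measurement. Libraries of 1 genotype shared no more of their regions than libraries of different genotypes (mean share of the union 0.714 and 0.721).

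**Figure D5:**
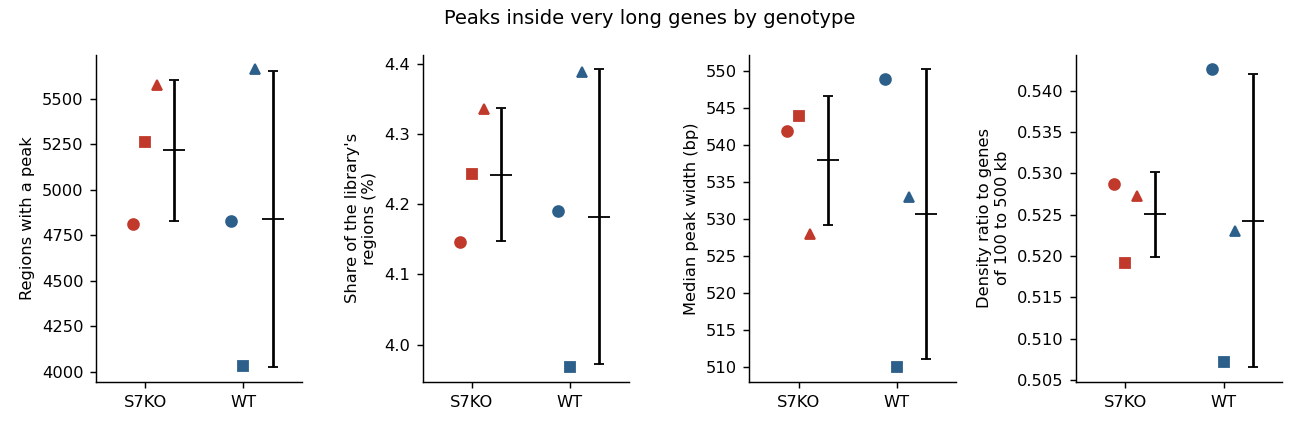
Number of regions with a peak, their share of the library's autosomal regions (%), median peak width (bp) and density ratio to genes of 100 to 500 kb, for the 3 S7KO and 3 WT libraries (circle, square and triangle for replicates 1, 2 and 4), with mean and SD in black and axes not from 0. The groups overlapped in all 4 panels, and WT replicate 2 was lowest in each.

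Some regions had a peak in every library of 1 genotype while no library of the other had one. There were 33 in S7KO, or 0.465% of the 7092 regions, against 0.418% of all autosomal regions. There were 5 in WT (0.0705%) against 0.0746% of all autosomal regions. Both shares were near the background of all autosomal regions. They were weak, since the median of their lowest rank was 92.2% in the S7KO set and 96.5% in the WT set. For the remaining 486 regions with a peak in exactly 3 libraries it was 92.7%. The S7KO set had a median width of 458 bp and lay in 28 genes. With each list held to an equal number of peaks, the best by q-value, the counts were 18 (0.313%, against 0.237% of all autosomal regions) and 17 (0.295%, against 0.202%).

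The S7KO-specific region of best rank lay in Iqcm (chromosome 8, 75662484 to 75662834), at 39.0%, 38.8% and 50.7% of the 3 lists with fold enrichments of 4.59, 4.45 and 3.86. The next were in Slc9a9, an endosomal sodium-proton exchanger, Dpp10, a partner of potassium channels, Tenm2 and Pcdh15, a protocadherin of hair cells, with a lowest rank of 69.1%, 73.7%, 74.7% and 80.7%. Thsd4 held 3 S7KO-specific regions, and Nfia, Slc9a9 and Ntm, an adhesion protein of the Lsamp family, 2 each. Of the 5 WT-specific regions, 2 lay in Galntl6, a glycosyltransferase relative, and 1 each in Cadm2, Alk and Pcdh15. The best of them, in Galntl6 (chromosome 8, 57905375 to 57905927), stood at 86.5%, 94.0% and 43.7% of the WT lists.

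Region counts of single genes seldom separated the genotypes. Of 212 very long genes with at least 5 regions, 4 (1.89%) held more regions in every S7KO than in every WT library, against 2.08% of genes of 100 to 500 kb, and 0 held more in every WT library, against 0.109%. Dlgap2, a scaffold of the postsynaptic density, held 29, 33 and 32 regions in S7KO and 25, 20 and 28 in WT. Slc9a9 held 25, 24 and 25 against 21, 20 and 23. Sorcs3, a sorting receptor of neurons, held 8, 6 and 9 against 5, 4 and 4, and Iqcm 5, 5 and 7 against 3, 3 and 4. In these genes the groups did not overlap, but the share of such genes was here no higher than the background. With each list held to an equal number of peaks the shares lay above it. WT was then higher in 3 genes (1.43%, against 1.13%) and S7KO in 6 (2.86%, against 1.78%), which was not tested. Without WT replicate 4, whose list was the longest, 65 genes (30.7%) were separated in this direction, against 25.6% of genes of 100 to 500 kb, and without WT replicate 2 the other direction held 5 (2.36%, against 1.92%).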

How the data were processed

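ATAC-seq peak lists of 3 S7KO and 3 WT libraries were used, named by the replicate numbers of their titles; a second label numbers some of them otherwise. Per the methods, the authors trimmed reads, aligned them to mm10 with Bowtie2 2.4.4.1, kept unique, non-duplicated reads (MAPQ of at least 30), removed mitochondrial DNA, shifted Tn5 ends, kept fragments of 150 to 1000 bp and called broad peaks per library with MACS2 2.2.5 (broad cutoff 0.1). The deposited lists give each peak's start and end, a display score (not used), the fold enrichment (a ratio to local background) and the −log10 of its p-value and q-value, the largest q-value being 0.0983. The study also speaks of nucleosome-free profiles; which fragments entered these calls was not settled. No exons were used, so exonic and intronic regions were not separated.

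Gene positions came from RefSeq (GRCm38.p6), and strands from its promoter table (169 of 216 very long genes) or the GENCODE symbol (44). Genes of unknown strand counted with both ends as 5′ ends. A library held a region when 1 bp of its peaks lay in it. Densities of classes gave each region to the longest gene that holds it, and 3 genes wholly inside a longer one were left out of the pools by position and promoter. Densities of single genes used all regions inside them and the full length of the gene. Genotypes were compared by exact permutation over libraries, and classes of genes by exact sign-flip permutation, with Benjamini-Hochberg adjustment. Scripts (Python 3.11.15, numpy 2.4.6, pandas 2.3.3, scipy 1.17.1) were tested on simulated peaks. The members and lists were chosen with earlier results of these data known. Named genes were the 10 densest and 10 sparsest, the 5 longest, 2 highest and 2 lowest per list, those with most genotype-specific regions, and those whose counts separated the genotypes. Alternatives changed the peak threshold, number, overlap, merging, distances, gene length, chromosomes and libraries.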

Additional observations from a re-analysis of the deposited data

How the results depend on the processing

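The lower density and width in very long genes kept their direction under every alternative, and so did the lower density in the first than in the last bin. With 1 library left out, the exact sign-flip test cannot go below 0.0625. The density differences then ranged from -2.69 to -2.55 and from -3.20 to -3.07 per 100 kb, the width differences from -24.8 to -20.2 and from -53 to -49.6 bp, the promoter difference from -0.567 to -0.548 and the position difference from -0.716 to -0.668. With replicates 1 and 4 alone, where the smallest p is 0.125, the same values were -2.66, -3.18, -24.8, -53, -0.562 and -0.738. Genes of at least 300 kb turned the promoter difference to 0.249.

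With so few libraries no genotype test could reach 0.05, and each difference changed sign under some setting. With replicates 1 and 4 alone the differences were -48.5 regions, -0.0473 percentage points, -0.00456 in density ratio, -6 bp and -0.126 percentage points in the first bin of genes. The density ratio difference was -0.00307 when peaks had to cover 50% of a region, the rank difference 0.0772 with −log10 q of at least 2 and 0.473 with equal numbers of peaks, and the difference in the first bin of genes -0.125 with equal numbers of peaks and -0.0798 in genes of at least 1000 kb. Leaving out 1 library gave -27.7 to 789 regions, -0.0474 to 0.162 percentage points, -0.00777 to 0.0101 in ratio, -3 to 16.5 bp, -0.550 to 0.0433 in rank and -0.0954 to 0.152 in the first bin of genes. WT replicate 2 turned 5 of these, and S7KO replicates 1, 2 and 4 and WT replicate 4 turned the ratio, rank or first bin. The causes were not tested.

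S7KO-specific and WT-specific regions numbered 18 and 17 with equal numbers of peaks, with the shares given above. In genes of at least 300 kb they numbered 66 (0.463%, against 0.418% of all autosomal regions) and 13 (0.0913%, against 0.0746%). In genes of at least 1000 kb they numbered 12 (0.501%, against 0.418%) and 3 (0.125%, against 0.0746%). Replicates 1 and 4 alone gave 93 (1.36%, against 1.21%) and 96 (1.4%, against 1.02%), and leaving 1 library out gave 38 to 160 and 9 to 43. Their shares then ran from 0.541% to 2.38% and from 0.129% to 0.612%, against 0.591% to 1.88% and 0.153% to 0.503% of all autosomal regions. When peaks had to cover 50% of a region, the WT-specific ones numbered 11 (0.155%, against 0.107% of all autosomal regions). At 300 kb, genes separated with S7KO higher numbered 10 (1.95%, against 2.1% of the next shorter class of genes). Those with WT higher numbered 1 (0.195%, against 0.0655%). With replicates 1 and 4 alone, genes separated numbered 7 with S7KO higher (3.3%, against 4.15%) and 8 with WT higher (3.77%, against 3.87%). With S7KO higher they numbered 2 at −log10 q of at least 2 (0.943%, against 1.42%) and 0 at 1000 kb (0%, against 2.12%). With WT higher they numbered 3 with equal numbers of peaks (1.43%, against 1.13%) and 1 at over 10 kb from 5′ ends (0.472%, against 0.0581%). With 1 library left out, those with S7KO higher numbered 4 to 65 (1.89% to 30.7%, against 2.58% to 25.6%). Those with WT higher then numbered 0 to 5 (0% to 2.36%, against 0.111% to 1.92%). Leaving out regions near alternative starts, chosen after seeing the data, changed no call.

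Same-numbered S7KO and WT libraries deviated together weakly for replicates 1 and 4 and not for replicate 2 (correlations of 0.106, 0.141 and -0.00299), and their regions overlapped most of all pairs for replicates 1 and 4 (share of the union 0.77 and 0.76). Since not every pair passed 0.1, the numbers were not taken as pairs. A replicate block leaves the mean differences as they are by construction, at 377 regions, 0.0597 percentage points, 0.000792 in ratio, 7.33 bp, -0.278 in rank and 0.0215 percentage points in the first bin of genes, and with 3 pairs its exact permutation p cannot go below 0.25, so it could make no call. Over all alternatives, 90 densities of named genes moved by more than the SD between libraries and 727 did not. The part of depth in these changes was not tested.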

Other observations

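The 11 protein-coding genes of at least 500 kb on the X chromosome, which male cells carry in 1 copy, were outside the rule and are given as values. They held 114 regions, with a median of 1.09 per 100 kb against 3.65 in autosomal very long genes. By library their pooled density ranged from 0.411 to 0.764 per 100 kb. Arhgap6, a GTPase-activating protein, was highest (3.93, 20 regions), and Dach2, a transcription factor, lowest (0.186, 1 region). Dmd, which encodes dystrophin and is the longest of them (2390 kb), held 26 regions (1.09), of which 15, 17 and 23 were called in S7KO and 11, 10 and 21 in WT. Il1rapl1, a synaptic organiser, held 8 regions, none of them in all 6 libraries. The own 5′ end had a peak in all 6 libraries in Arhgap6, Aff2, Diaph2, Dmd, Tenm1, Il1rapl2, Il1rapl1, Pcdh11x and Dach2, in 3 in Fgf13 and in 0 in Frmpd4.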
